A study of Rattus norvegicus with 16 samples.

Results

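Cells make cholesterol and fatty acids from the same small building block, acetyl-CoA, and the 31 genes described here code for the enzymes of both pathways and for the proteins that control them. They were chosen by symbol from a list of 33. A member is a probe set, the group of probes that reads 1 transcript, that carries exactly 1 of these symbols and whose signal, averaged across the authors' 13 kept arrays, reached 300. This gave 31 genes of 11286 tested, read by 48 probe sets of 20904. Of the 31 genes, 17 code for enzymes of cholesterol synthesis, 5 for regulators, 1 for a sterol carrier and 8 for enzymes of fatty acid synthesis. Hmgcs1 and Npc1 matched no probe set with exactly 1 symbol. A further probe set each of Lss, Mvk and Srebf2 lay below the minimum, with mean signals of 257, 49.9 and 151. The signal is Affymetrix's MAS5 value on a linear scale, and where a gene had several member probe sets the brightest stood for it.

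The RNA came from cultured rat levator ani satellite cells (LASCs), labelled as muscle satellite cells and used at passage 5. The 4 groups held 4 arrays each. They were vehicle (0.2% DMSO) for 4 h, the nonsteroidal androgen receptor agonist NARA at 10 nM for 4 h, vehicle for 48 h, and NARA at 10 nM for 48 h. During treatment all groups were kept in growth medium whose fetal bovine serum had been replaced by 10% charcoal-stripped serum, which is depleted of steroids. The arrays kept were 4 of vehicle 4 h, 2 of NARA 4 h, 3 of vehicle 48 h and 4 of NARA 48 h. Whether the replicates, titled biological, came from different cultures or animals is not given in the sources used here. The p-values therefore measure the spread between these arrays alone, and that spread may be technical.

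Cholesterol is built through mevalonate, isoprenoid diphosphates and squalene to lanosterol, which is then trimmed to cholesterol. The transcription factors SREBP-1 and SREBP-2 (Srebf1, Srebf2) switch these genes on when sterols are scarce. Scap escorts them out of the endoplasmic reticulum, and Insig1 and Insig2 hold them back there when sterols are plentiful. Fatty acids are made from citrate-derived acetyl-CoA by Acly, Acaca and Fasn, and are then lengthened by elongases (Elovl5, Elovl6) and given double bonds by desaturases (Scd, Fads1, Fads2). In prostate cells androgens are known to raise many of these genes.

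Pairs of the 13 arrays had correlations from 0.928 to 0.962, taken over probe sets, which do not count as replicates. The defining satellite cell markers Pax7 and Myf5 were not analysed here, Myod1 had a mean signal of 83.9, below the minimum, and Myog one of 1117. Of 12 satellite cell and myoblast markers 10 passed the minimum, among them Cdh15 at 1275 and Sdc4 at 8548, and Myod1 and Chrna1 did not. The median signal of the 12 was 713. Passing the minimum does not single out a cell type. Of 12 liver markers 6 passed (median 332), of 10 macrophage markers 5 (median 360) and of 7 endothelial markers 4 (median 344). For fibroblasts 14 of 14 markers passed, with a median of 29006. For adipocytes, a cell type rich in these pathways, 9 of 13 markers passed the minimum, and the median was 557. Lipe had a mean signal of 2787, Pnpla2 one of 1881 and Pparg one of 696. Fabp4, Cidec, Lep and Cfd did not pass, with mean signals of 18.6, 27.0, 77.8 and 252. Summed adipocyte signal ranged over 9297 to 9973 in vehicle 4 h, 8759.5 to 10783 in NARA 4 h, 8640.2 to 10797 in vehicle 48 h and 9028 to 9954 in NARA 48 h, so the groups overlapped. The sum of 7 smooth muscle markers was lower at 48 h than at 4 h, in vehicle and in NARA. It was 18589 to 26453 in vehicle 4 h and 18257 to 27255 in NARA 4 h. At 48 h it was 15577 to 18349 in vehicle and 11476 to 15822 in NARA, which overlapped. Most of it came from Tagln and Acta2, with means of 8547 and 5076 in vehicle 48 h. In NARA 48 h these were 5579 and 4019. There Myh11 and Des also had lower means than in vehicle 48 h, while Cnn1, Smtn and Actg2 had higher ones. The part of these markers in the results was not tested. In bulk RNA, fewer cells of a type and less RNA per cell cannot be told apart.

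**Figure D1:**
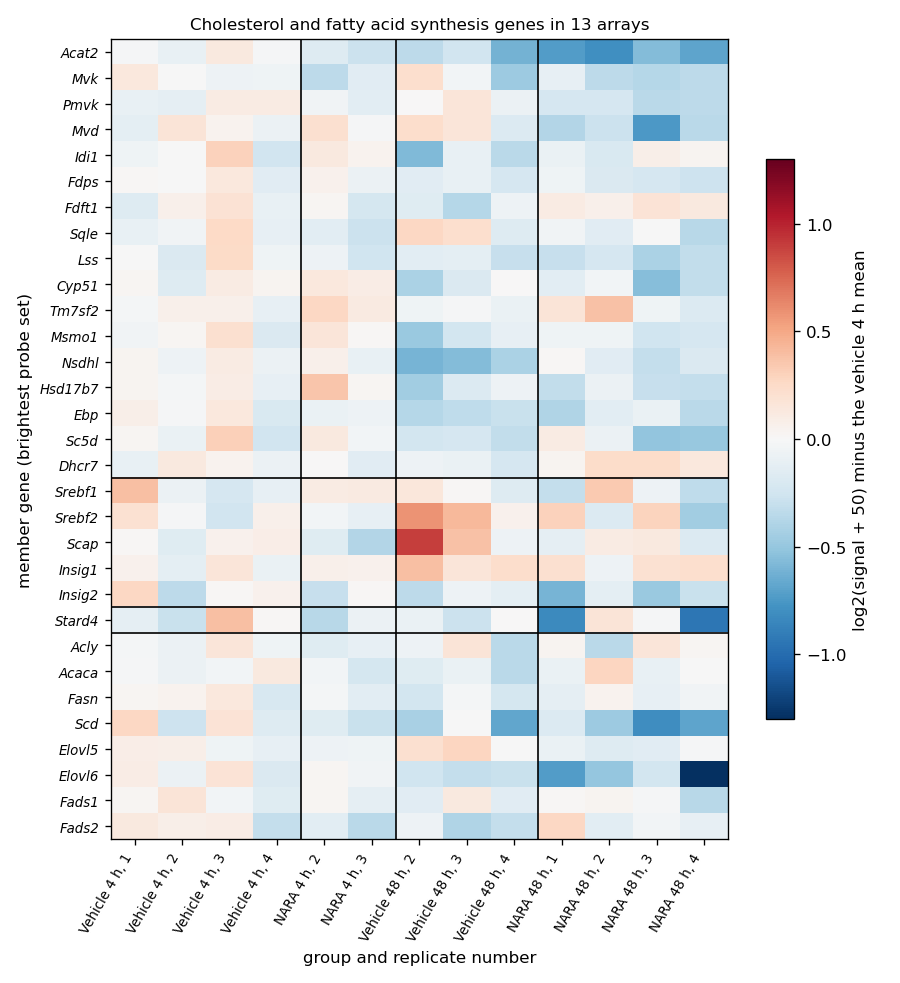
Heat map of log2(signal + 50) minus the vehicle 4 h mean for the 31 member genes (rows, grouped as cholesterol enzymes, regulators, the sterol carrier Stard4 and fatty acid enzymes) in the 13 arrays kept (columns). Colours run from blue (lower) to red (higher), and 14 of the 17 cholesterol enzymes have a lower mean at 48 h than at 4 h in vehicle.

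Time in culture was compared first, as vehicle 48 h against vehicle 4 h. Most cholesterol enzymes had a somewhat lower signal at 48 h, by amounts that did not pass the test. Of the 17 enzymes, 14 had a negative log2 difference, with a median of -0.20. The 8 fatty acid enzymes had 7 negative values and a median of -0.18, and of the 5 regulators 4 were positive, with a median of 0.26 (3 positive after quantile normalization or median centring, where Srebf1, near 0, turned). Over all 31 genes 23 values were negative and the median was -0.16, beside a median of 0.005 and 49.2% negative over all probe sets tested. The genes were read on the same arrays, so their signs do not count as separate observations. By array, the member median against the vehicle 4 h mean was 0.02, -0.05, 0.11 and -0.10 in vehicle 4 h. In vehicle 48 h it was -0.14, -0.08 and -0.18, which overlapped. In limma, 0 of the 31 genes passed at adjusted p under 0.05, and 0.00% of all probe sets did. At an unadjusted p under 0.05 there were 5 members (4 lower, 1 higher), which is 16.1%. Among all probe sets 3.89% were lower and 3.45% higher, and among all genes by brightest probe set 7.87% had such a p. Between 4 h and 48 h in vehicle, the groups of 5 genes by their brightest probe set did not overlap, all lower (16.1%). Among all probe sets it was 8.90% in either direction and 4.62% lower, and among all genes by brightest probe set 9.57% in either direction.

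The smallest p among the members was that of Nsdhl, which takes part in removing the C-4 methyl groups of sterol intermediates. Its signals were 11837, 11049, 12434 and 10959 in vehicle 4 h and 7609, 7807 and 8668 in vehicle 48 h. All 48 h arrays lay below all 4 h arrays. The log2 difference was -0.52 (SE 0.107, adjusted p = 0.421). Vehicle 48 h replicate 1, left out by the authors, had 9452, and with it the difference was -0.47 (adjusted p = 0.263). The dimmer Nsdhl probe set did not follow, at 0.06 (SE 0.134, adjusted p = 0.946). Acat2, the cytosolic thiolase that joins acetyl-CoA units at the head of the pathway, had 12141, 11433, 13426 and 12115 at 4 h and 9668, 10305 and 8010.2 at 48 h in vehicle. These groups did not overlap either, with a log2 difference of -0.40 (SE 0.112, adjusted p = 0.499). Ebp, a sterol isomerase, had 5030.1, 4716, 5249 and 4169 at 4 h and 3672, 3787 and 3903 at 48 h, with no overlap and a difference of -0.33 (SE 0.113, adjusted p = 0.586). Idi1, which interconverts the isoprenoid building units, had 11932, 12368, 15218 and 10429.5 against 8266, 11528 and 9715. Its groups overlapped, and the difference was -0.34 (SE 0.149, adjusted p = 0.659).

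Of the regulators, Insig1 had the smallest p for time in vehicle. It had 19162, 16795, 20524 and 17332 at 4 h and 24054, 20524 and 21511 at 48 h, where the lowest 48 h value equalled the highest 4 h value to the nearest whole signal, and its log2 difference was 0.26 (SE 0.114, adjusted p = 0.668). Scap had 2517, 2227, 2582 and 2646 at 4 h, and at 48 h 4669, 3259 and 2368, which spread widely. Its difference was 0.40 (SE 0.190, adjusted p = 0.681), while its dimmer probe set lay at -0.39. Srebf2, which codes for the SREBP most tied to cholesterol genes, had 4981, 4282, 3631 and 4526 and 6489.7, 5799 and 4488, a difference of 0.35 (SE 0.199, adjusted p = 0.715). For Srebf1 the difference was 0.0010 (SE 0.185) and for Insig2 -0.18. Among the fatty acid enzymes, by their brightest probe sets, the values ran from -0.37 for Scd to 0.16 for Elovl5. Fasn lay at -0.16, Acaca at -0.20 and Acly at -0.08. Dimmer probe sets of Fasn and Acaca were positive, at 0.20 and 0.42, and those of Elovl5 and Elovl6 both lay at -0.14. For the dimmer Fasn probe set the groups did not overlap, with 48 h higher.

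The promoters of the 4 members with the smallest p for time in vehicle are shown because genes of this pathway are known to be controlled together through their promoters. SREBP works together with the factor NF-Y, whose box reads CCAAT, or ATTGG on the other strand. RefSeq's promoter table (GRCr8) held 24 of the 31 genes, and the 250 bases before the first listed start of each were searched on both strands. The box was present in 18 of 24 member promoters (75.0%), beside 9416 of 27457 in the whole table (34.3%). Among other genes of sterol and fatty acid metabolism, from the list used further on, it was in 30 of 60. A sterol regulatory element spelled TCACNCCAC (GTGGNGTGA on the other strand) was found in 0 of the 24 and in 0.976% of the table, which says only that these letters were not in this window. With no element found, none overlapped a box in these promoters. The sequences lie at chrX:155817110-155817359 (plus strand) for Nsdhl, chrX:16971212-16971461 (plus strand) for Ebp, chr17:66547525-66547774 (minus strand) for Idi1 and chr1:50100590-50100839 (plus strand) for Acat2. They run 5′ to 3′ along the gene, with NF-Y boxes in capitals.
Nsdhl: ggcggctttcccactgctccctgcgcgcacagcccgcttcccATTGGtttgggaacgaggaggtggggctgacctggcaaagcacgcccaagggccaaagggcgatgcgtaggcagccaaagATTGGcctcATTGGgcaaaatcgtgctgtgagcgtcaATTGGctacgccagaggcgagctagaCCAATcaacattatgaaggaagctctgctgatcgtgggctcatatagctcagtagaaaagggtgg
Ebp: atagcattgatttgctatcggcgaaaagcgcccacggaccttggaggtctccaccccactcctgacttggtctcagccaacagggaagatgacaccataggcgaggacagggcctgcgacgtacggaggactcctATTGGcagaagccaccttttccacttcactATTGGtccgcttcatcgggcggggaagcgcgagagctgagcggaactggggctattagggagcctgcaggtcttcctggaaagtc
Idi1: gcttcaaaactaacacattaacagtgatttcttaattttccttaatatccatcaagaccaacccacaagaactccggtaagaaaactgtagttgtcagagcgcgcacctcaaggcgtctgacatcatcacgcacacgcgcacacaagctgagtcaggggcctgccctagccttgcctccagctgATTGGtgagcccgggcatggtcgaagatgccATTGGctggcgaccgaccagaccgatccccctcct
Acat2: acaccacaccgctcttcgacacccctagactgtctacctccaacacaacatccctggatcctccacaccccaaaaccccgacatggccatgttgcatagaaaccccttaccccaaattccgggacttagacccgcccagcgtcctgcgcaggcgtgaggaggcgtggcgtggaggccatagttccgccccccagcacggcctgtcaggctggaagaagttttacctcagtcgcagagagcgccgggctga
The Nsdhl promoter held 5 boxes, those of Ebp and Idi1 2 each, and that of Acat2 0. A match in sequence is a description and does not show that NF-Y was bound.

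**Figure D2:**
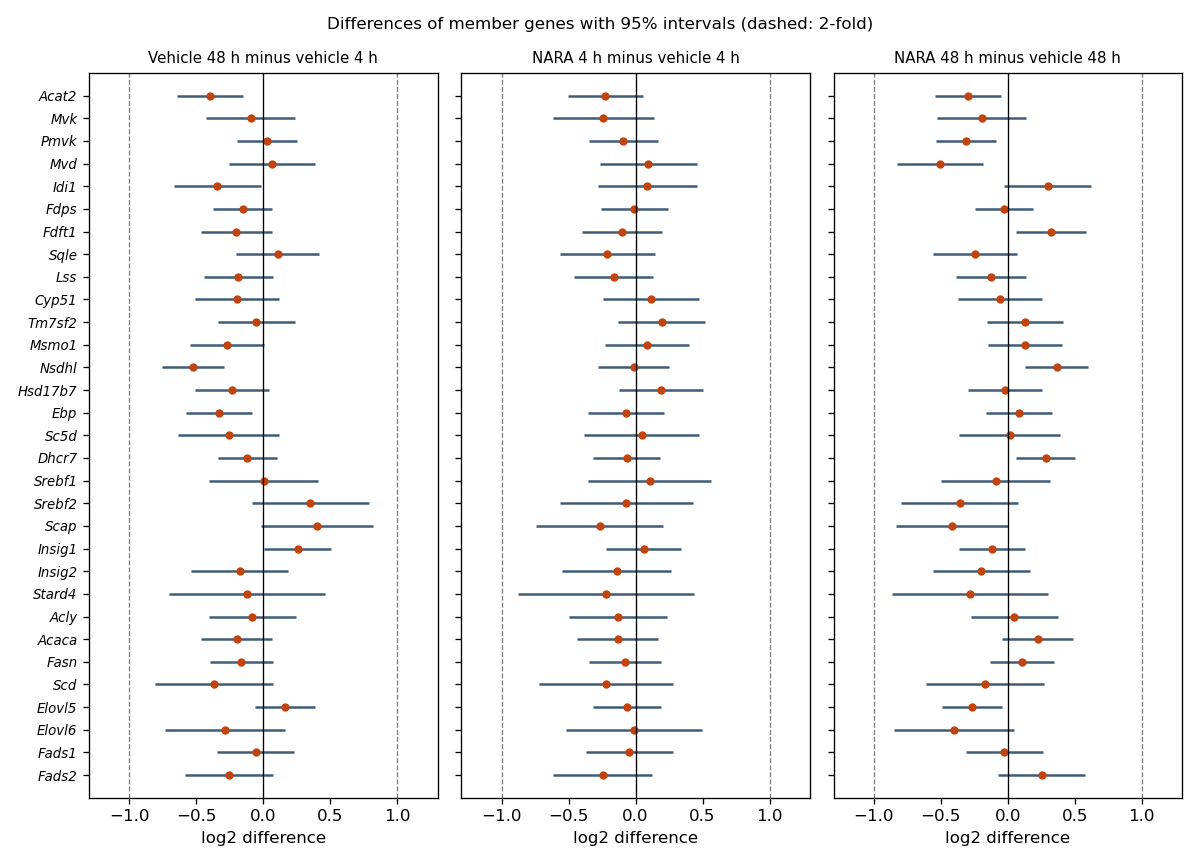
Log2 differences (points) with 95% intervals from limma (lines) for the 31 member genes, for time in vehicle and for NARA against vehicle at 4 h and at 48 h, with dashed lines at a 2-fold change. In each of the 3 comparisons 31 of 31 intervals stay between the dashed lines.

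The question at 48 h was whether NARA changed these genes. Members differed in both directions and by less than 1.5-fold, and none passed. Of the 17 cholesterol enzymes 8 had positive and 9 negative log2 differences, with a median of -0.02. The 5 regulators were all negative, from -0.42 to -0.09, with a median of -0.20. After quantile normalization 5 and after median centring 5 of the 5 were negative, and dimmer probe sets of Insig2 and Scap were positive (0.27 and 0.10). The regulator values for time in vehicle and for NARA at 48 h rest on the same vehicle 48 h arrays. Against the vehicle 4 h mean, the regulator median there was 0.39 in replicate 2, 0.16 in replicate 3 and -0.07 in replicate 4. In the left-out replicate 1 it was -0.21. The 2 sets of signs are therefore not separate support. The 8 fatty acid enzymes had 4 positive and 4 negative values, with a median of 0.01. Over the 31 genes the median was -0.06 and 61.3% were negative, beside -0.0037 and 50.5% over all probe sets. In limma 0 of the 31 genes and 0 of the 48 probe sets passed, while 2.80% of all probe sets did. At an unadjusted p under 0.05 there were 3 genes higher and 5 lower (25.8%), beside 7.63% higher and 8.38% lower among all probe sets. Of all genes by their brightest probe set, 17.1% had such a p. The groups did not overlap for 6 genes (19.4%), beside 14.7% of all probe sets and 16.7% of all genes by brightest probe set.

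Mvd, which decarboxylates mevalonate diphosphate, had the smallest p. Its signals were 3112, 2961 and 2336 in vehicle 48 h and 2022, 2179, 1558 and 2067 in NARA 48 h. Every NARA array lay below every vehicle array kept, and the log2 difference was -0.51 (SE 0.146, adjusted p = 0.09996). The left-out vehicle 48 h replicate 1 had 2431. Nsdhl went the other way, with 7609, 7807 and 8668 in vehicle and 11675, 10415, 9298 and 10147 in NARA, again without overlap, and a difference of 0.37 (SE 0.107, adjusted p = 0.103). The calls for both genes turned on the fit. With a trended and robust prior they passed, at adjusted p = 0.0369 for Mvd and 0.0206 for Nsdhl, and they also passed with a minimum signal of 1000, at adjusted p = 0.0313 and 0.0364. With vehicle 48 h replicate 1 put back they did not, at adjusted p = 0.0899 and 0.150. The dimmer Nsdhl probe set lay at -0.15, opposite in sign to the brighter. The time comparison in vehicle and this comparison share the vehicle 48 h arrays, on which both Nsdhl values rest.

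Pmvk, the phosphomevalonate kinase that acts just before Mvd, had 5714, 6382 and 5417 in vehicle 48 h and 4887, 4918, 4456 and 4489 in NARA 48 h. The groups did not overlap, and the difference was -0.31 (SE 0.104, adjusted p = 0.151). Dhcr7, the reductase of the last step to cholesterol, had 5012, 4952 and 4514 and 5381, 6181, 6185 and 5783, also without overlap, with a difference of 0.28 (SE 0.101, adjusted p = 0.184). Fdft1, the squalene synthase, lay at 0.32 (SE 0.120, adjusted p = 0.205) and Acat2 at -0.29 (SE 0.112, adjusted p = 0.217). Along the pathway the values were of both signs, with negative values for Acat2, Mvk, Pmvk and Mvd at the head of the pathway (-0.29, -0.19, -0.31 and -0.51) and positive values for Idi1 and Fdft1 further on (0.30 and 0.32). Fdps, between those, lay at -0.03, and Sqle, the epoxidase after Fdft1, at -0.25. This grouping by step was made after the values were seen, and it was not tested.

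Srebf2 had 6489.7, 5799 and 4488 in vehicle 48 h and 5331, 3833, 5314 and 3159 in NARA 48 h, which overlapped, and its difference was -0.36 (SE 0.199, adjusted p = 0.425). Scap lay at -0.42 (SE 0.190, adjusted p = 0.311), Insig1 at -0.12, Insig2 at -0.20 and Srebf1 at -0.09. Elovl6, which lengthens palmitate, had 3566, 3437 and 3509.7 in vehicle and 2567, 3019.9, 3628 and 1715 in NARA. The NARA arrays ran from far below vehicle to just above it, and the difference was -0.40 (SE 0.204, adjusted p = 0.369). Elovl5 lay at -0.27 (SE 0.102, adjusted p = 0.219) and its groups did not overlap. Fasn, the fatty acid synthase, lay at 0.11 (SE 0.108, adjusted p = 0.690) by its brightest probe set, and at -0.43 (SE 0.152, adjusted p = 0.178) by the dimmer one, where the groups did not overlap. For Acly, Acaca and Scd the differences were 0.05, 0.22 and -0.17.

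**Figure D3:**
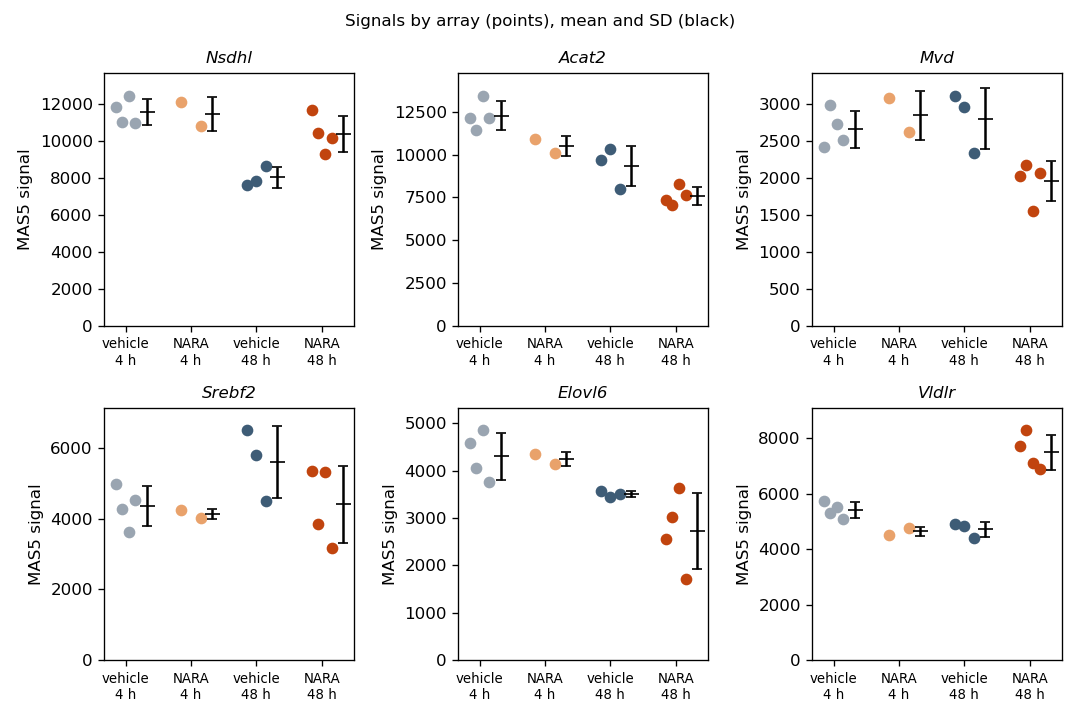
MAS5 signals of 5 members and of the related gene Vldlr by group, with 1 point per array kept and the mean ± SD in black (n = 4, 2, 3 and 4 from left to right). The vehicle 48 h points of Nsdhl lie below all other groups, the NARA 48 h points of Mvd lie below vehicle 48 h, and the NARA 48 h points of Vldlr lie above every other point.

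At 4 h no member differed from vehicle past the threshold. The log2 differences ran from -0.27 (Scap) to 0.19 (Tm7sf2), with a median of -0.07 beside 0.0072 over all probe sets. The values were negative for 22 of 31 genes (71.0%) beside 48.5% of all probe sets. By their brightest probe sets 8 of 8 fatty acid enzymes were negative (after quantile normalization 8, after median centring 8). Dimmer probe sets of Acaca and Elovl5 were positive (0.33 and 0.30), and those of Fasn and Elovl6 negative (-0.05 and -0.16). In limma 0 members passed at 4 h, beside 0.00% of all probe sets, and 0 of 31 genes had an unadjusted p under 0.05, beside 4.75%. The groups did not overlap for 6 genes (19.4%), beside 14.3% of all probe sets and 14.2% of all genes by brightest probe set. Acat2 had the smallest p, with 12141, 11433, 13426 and 12115 in vehicle 4 h and 10895 and 10068 in NARA 4 h. The NARA arrays lay below vehicle, with a difference of -0.23 (SE 0.127, adjusted p = 1.000). Fads2, the delta-6 desaturase, had 2450.2, 2364, 2398 and 1801 against 2029 and 1740.1, which overlapped, and a difference of -0.25 (SE 0.168, adjusted p = 1.000). Mvk, the mevalonate kinase, had 2505, 2256, 2163 and 2179 and 1787 and 2051, without overlap, and a difference of -0.24 (SE 0.171, adjusted p = 1.000), while its dimmer probe set lay at 0.33. Hsd17b7, a sterol ketoreductase, had 2429, 2328, 2526 and 2184 and 3044 and 2405, which overlapped. It lay at 0.19 (SE 0.143, adjusted p = 1.000), while its dimmer probe set lay at -0.22. Only 2 NARA arrays entered this comparison.

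Under NARA the change from 4 h to 48 h was compared in the same way. Of the 17 cholesterol enzymes 14 had negative log2 differences, with a median of -0.17, and over the 31 genes the median was -0.14 beside -0.0083 over all probe sets. In limma 0 members passed, beside 0.785% of all probe sets, and 5 genes had an unadjusted p under 0.05, all lower, beside 11.6% of all probe sets in either direction and 5.85% lower. For 10 genes the groups did not overlap (32.3%), beside 21.0% of all probe sets and 22.4% of all genes by brightest probe set. Acat2 had 10895 and 10068 at 4 h and 7364, 7034, 8258 and 7607 at 48 h, clear of each other. Its log2 difference was -0.47 (SE 0.127, adjusted p = 0.146), and with a trended and robust prior it passed at adjusted p = 0.0291. Mvd, with 3079.9 and 2618 at 4 h and 2022, 2179, 1558 and 2067 at 48 h, lay at -0.54 (SE 0.166, adjusted p = 0.205). Hsd17b7 had 3044 and 2405 and 1883, 2234, 1905 and 1903, a difference of -0.44 (SE 0.143, adjusted p = 0.229), while its dimmer probe set lay at 0.07. Elovl6, with 4356 and 4139 against 2567, 3019.9, 3628 and 1715, had the largest difference among the members, -0.68 (SE 0.231, adjusted p = 0.261). The groups of Mvd, Hsd17b7 and Elovl6 did not overlap. Acat2 was thus lower at 48 h than at 4 h in vehicle and in NARA, where the 2 comparisons use separate arrays, and neither difference passed. Over the 31 genes, 17 had negative differences with time in both, 4 positive in both and 10 opposite signs.

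The effect of NARA at 48 h minus that at 4 h tests whether its effect changed with time. No member passed in limma, where 0.124% of all probe sets did, and 5 of 31 genes had an unadjusted p under 0.05 (4 positive and 1 negative, beside 4.60% and 4.40% of all probe sets). The smallest p was that of Mvd, at -0.60 (SE 0.221, adjusted p = 0.455), followed by Nsdhl at 0.38 (SE 0.162, adjusted p = 0.524), Fdft1 at 0.42 (SE 0.181, adjusted p = 0.531) and Dhcr7 at 0.35 (SE 0.153, adjusted p = 0.537). The dimmer Nsdhl probe set had the opposite sign, 0.65 log2 units away from the brighter. The Mvd signals not yet given were 2424, 2983, 2732 and 2513 in vehicle 4 h, and those of Nsdhl were 12118 and 10791 in NARA 4 h. Fdft1 had 5129, 6042, 6574 and 5363 in vehicle 4 h, 5867 and 4905 in NARA 4 h, 5133, 4432 and 5477 in vehicle 48 h and 6203, 6029, 6523 and 6261 in NARA 48 h. Dhcr7 had 4889, 5733, 5418 and 4981 in vehicle 4 h and 5279.8 and 4742 in NARA 4 h. The NARA and vehicle arrays of each of these 4 genes overlapped at 4 h and did not at 48 h. The 4 genes were picked by p from these same signals, so this is no separate support. The median over the members was -0.03, beside -0.01 over all probe sets. The regulators ranged from -0.29 to -0.06.

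The intervals give the range of change these arrays allow. The 95% interval lay inside a 2-fold change for 31 of 31 members for time in vehicle, 31 for NARA at 4 h and 31 for NARA at 48 h, beside 16899, 15890 and 16131 of the 20904 probe sets. Inside 1.5-fold it lay for 22, 26 and 23 members, beside 10329, 9187 and 9020 of the 20904 probe sets. At 48 h the widest bounds were an upper one of 1.54-fold higher for Idi1 and a lower one of 1.82-fold lower for Stard4, which carries sterols between membranes. For time in NARA, Elovl6 had a bound of 2.27-fold lower. These intervals are per gene and not adjusted for the number of genes. Within groups the members had a median SD of 0.156 log2 units, ranging from 0.0949 for Fdps to 0.375 for Stard4, beside 0.252 over all probe sets and 0.177 over those with a mean signal of at least 1000.

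Probe sets of the same gene often disagreed in sign at these small differences. Of the 15 genes with several member probe sets, 7 had all of them on the same side of 0 for time in vehicle, 7 for NARA at 4 h and 6 for NARA at 48 h. For Idi1 at 48 h the brighter lay at 0.30 and the dimmer at -0.14. For Fdft1 both were positive, at 0.32 and 0.13, and for Elovl6 both were negative, at -0.40 and -0.27. Cyp51, the lanosterol demethylase, lay at -0.06 and -0.31.

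Other genes of sterol and fatty acid metabolism were examined from a separate list, of which 58 genes were measured. At 48 h, by each gene's brightest probe set, 1 was higher with NARA and 0 were lower past the threshold, beside 1.36% of all probe sets higher and 1.44% lower. The gene was Vldlr, a receptor that takes up lipoprotein lipid. Its signals were 4907, 4835 and 4419 in vehicle 48 h and 7712, 8284, 7097 and 6886 in NARA 48 h, clear of each other. It rose by 0.66 (SE 0.0985, adjusted p = 0.00406) log2 units, and its other 3 probe sets had positive differences of 0.52, 0.36 and 0.28 that did not pass. Fitted on the 48 h arrays alone, its adjusted p was 0.0650, and with all 16 arrays 1.000. The fit of 16 arrays gave a difference of 0.66 (SE 0.899) and includes the left-out arrays described below. Under 22 of 24 alternatives the call held. At 4 h Vldlr had 5734, 5297, 5531 and 5084 in vehicle and 4530.4 and 4768 in NARA, a difference of -0.22 (SE 0.112, adjusted p = 1.000), and the difference between its effects was 0.88 (SE 0.149, adjusted p = 0.0587). From 4 h to 48 h under NARA it rose by 0.68 (SE 0.112, adjusted p = 0.0206) log2 units. With all 16 arrays this difference was 3.05 (SE 0.899, adjusted p = 0.156). The call was also lost with only the NARA groups in the fit (adjusted p = 0.234), with no signal minimum (0.0626), without NARA 4 h replicate 2 (adjusted p = 0.173) and without replicate 3 (0.0857), where the single NARA 4 h array left was assumed to vary like the other groups.

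Dgat2, which makes triglyceride, had 5175, 3052 and 2934 in vehicle 48 h and 5195, 4851, 7925 and 6282 in NARA 48 h. Vehicle 48 h replicate 2 lay among the NARA arrays, and the difference was 0.72 (SE 0.212, adjusted p = 0.105). Without that array it was 0.98, with adjusted p = 0.0275. With all 13 arrays the dimmer Dgat2 probe set passed, at 0.70 (SE 0.135, adjusted p = 0.0183). That call was lost under 5 of 24 alternatives, including the removal of replicate 2 or 3 of vehicle 48 h, which gave adjusted p = 0.0833 and 0.0835. A dimmer probe set also passed, and was lower, for Soat1, which esterifies cholesterol for storage. It had 1168, 1058 and 1139 in vehicle 48 h and 479, 670.5, 727 and 260.1 in NARA 48 h, without overlap, a difference of -1.09 (SE 0.251, adjusted p = 0.0432). The call was lost under 15 of 23 alternatives. It held without NARA 48 h replicate 2, 3 or 4, and without any other single array the adjusted p was 0.0627 to 0.142. The brightest Soat1 probe set lay at 0.08 (SE 0.121, adjusted p = 0.817). Erlin2, which helps degrade proteins of the endoplasmic reticulum when sterols are high, lay at 0.33 (SE 0.106, adjusted p = 0.144). In the other comparisons of the list 0 genes passed, except Vldlr for time in NARA. For time in vehicle the smallest p was that of Acss2, which makes acetyl-CoA from acetate. It had 12758, 11350.0, 11529.7 and 10297 at 4 h and 7373, 8723 and 7368 at 48 h, without overlap, a difference of -0.55 (SE 0.109, adjusted p = 0.421). Acsl1, which activates long-chain fatty acids, lay at -0.47 (SE 0.142, adjusted p = 0.553), and the lysosomal lipase gene Lipa at 0.26 (SE 0.0926, adjusted p = 0.605). For NARA at 4 h the values were -0.54 (SE 0.155, adjusted p = 0.662) for Nfya, a subunit of NF-Y, -0.35 (SE 0.126, adjusted p = 0.893) for Aacs, which activates acetoacetate, and -1.11 (SE 0.468, adjusted p = 1.000) for the lipoprotein receptor gene Scarb1. For time in NARA, Thrsp, a regulator of fat synthesis, lay at 0.69 (SE 0.188, adjusted p = 0.150) and Dgat2 at 0.74 (SE 0.240, adjusted p = 0.229). For the difference of effects, Aacs lay at 0.51 (SE 0.168, adjusted p = 0.392) and Nfyc, another NF-Y subunit, at 0.38 (SE 0.151, adjusted p = 0.496).

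**Figure D4:**
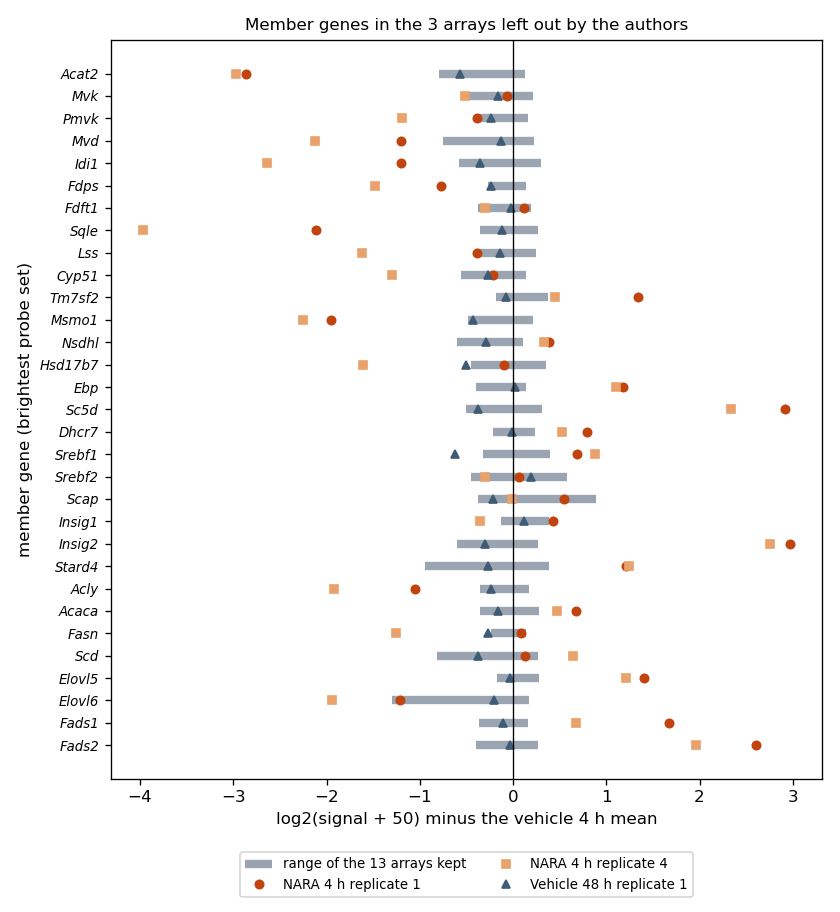
Log2(signal + 50) minus the vehicle 4 h mean for the 31 member genes in the 3 arrays left out by the authors (symbols), beside the range of the 13 arrays kept (grey bars). NARA 4 h replicates 1 and 4 lie outside the bars for most genes, on both sides, and vehicle 48 h replicate 1 lies inside them for 28 of 31.

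The 3 arrays left out by the authors entered these comparisons only where it is said that they were put back. The arrays labelled NARA 4 h replicates 1 and 4 correlated with the 13 at 0.560 to 0.603. In replicate 1, 13 member genes lay above the range of the 13 arrays and 8 below it, and in replicate 4 these were 13 and 15. Squalene epoxidase, Sqle, had 1289 and 320.1 there, against a vehicle 4 h mean of 5766 ± 731 (SD, n = 4), and Acat2 had 1639 and 1516 against 12278 ± 832 (SD, n = 4). Insig2 had 16423 and 14232 against 2081 ± 355 (SD, n = 4), Sc5d, a sterol desaturase, 24142 and 16056 against 3177 ± 539.9 (SD, n = 4), and Fads2 13822 and 8867 against 2253 ± 303 (SD, n = 4). Squalene epoxidase and thiolase signals were thus far below, and those of Insig2 and both desaturases far above, any array kept. Albumin, a liver marker, had a mean signal of 239820.0 in these arrays and 664 in vehicle 4 h. Vehicle 48 h replicate 1 correlated with the 13 at 0.916 to 0.935.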

How the data were processed

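Intensities were deposited as MAS5 signals on a linear scale, which the authors scaled to a target of 1500 on Affymetrix Rat Genome 230 2.0 arrays, per the series' design text and the submitters' processing notes. Each array took 5 µg of RNA, whose extraction is given as Trizol in the labels and as a column kit in the design text. The authors excluded 3 arrays for low correlation (replicates 1 and 4 of NARA 4 h, replicate 1 of vehicle 48 h), and these stayed out here too. Of 16 arrays, 13 remained, and their number limits the precision.

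Signals were taken as log2(signal + 50), which understates changes of dim probe sets. Of 31099 probe sets, 57 controls were set aside, and 20826 of the rest had 1 symbol, 436 several and 9780 none in the platform annotation. Those with a mean signal of at least 300 were tested. Group means were fitted with limma 3.58.1 (lmFit, eBayes) in R 4.3.3, with 1 shared spread, 9 residual and 2.40 prior degrees of freedom. Two-sided p-values were adjusted by Benjamini-Hochberg over all 20904 probe sets, with a threshold of 0.05. A log2 difference has its limma SE. The scripts were tested on simulated data.

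The members and lists were chosen with earlier results of these data known. Values in every array are given for the 4 members of smallest p per comparison, and values for the 3 related genes of smallest p and those past the threshold. Alternatives were other sets of arrays, offsets of 1 and 200, no minimum or one of 1000, median centring or quantile normalization, a robust prior with a trend, all probe sets, a replicate block, and leaving out each array.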

Additional observations from a re-analysis of the deposited data

Results flagged for a closer look

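In groups of 4 arrays, 62 sets of signals (31 member genes in vehicle 4 h and NARA 48 h) were tested for a single array far from the other 3 with Dixon's criterion, and 6 met it. Chance gives about 1 in 20. Sqle in vehicle 4 h replicate 3 had 6851 against 5311 to 5544 in the others. Fads2 in vehicle 4 h replicate 4 had 1801 against 2364 to 2450.2. In NARA 48 h, Insig1 in replicate 2 had 17523 against 21171 to 21385, Hsd17b7 in replicate 2 had 2234 against 1883 to 1905, Mvk in replicate 1 had 2103 against 1742 to 1788, and Fads1 in replicate 4 had 12812 against 16293 to 16945.

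Signal outside the comparisons was found in 2 arrays that the authors left out. The summed signal of 12 liver markers was 1366990.0 in NARA 4 h replicate 1 and 1653640.0 in replicate 4, against 3527 to 4577 in vehicle 4 h.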

How the results depend on the processing

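No member gene passed under any alternative for time in vehicle, for NARA at 4 h or for the difference of effects. For NARA at 48 h, 2 members passed with a minimum signal of 1000 and 2 under the robust prior with a trend (Mvd and Nsdhl each time), and for time in NARA 1 passed with that prior (Acat2); leaving out each array in turn gave 0 throughout. The median of the members stayed between -0.19 and -0.12 for time in vehicle, -0.11 and -0.03 for NARA at 4 h, and -0.10 and -0.00072 for NARA at 48 h. With all 16 arrays it was 0.06 for time in NARA and 0.09 for the difference of effects. That fit also turned the sign at 4 h for Fads2 (1.02), Hsd17b7 (-0.33) and Scarb1 (0.45). For time in NARA it did so for Acat2 (0.88), Mvd (0.34), Hsd17b7 (0.076), Elovl6 (0.10), Thrsp (-2.02) and Dgat2 (-0.97), and for the difference of effects for Mvd (0.32) and Dhcr7 (-0.040). It puts back the 2 arrays with high liver marker signal. Deviations of same-numbered arrays correlated at -0.0364 to 0.0387 over 16 pairs, so no strong shared deviation was seen. This cannot show whether equal numbers stand for a shared culture or batch. With a replicate block 0 members passed in each comparison. In that fit the rise of Vldlr under NARA from 4 h to 48 h was 0.70, with adjusted p = 0.0759. The difference of NARA effects on Vldlr passed under 5 of 23 alternatives, and Dgat2 at 48 h under 4 of 24.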
